A study of Drosophila melanogaster with 9 samples.

Results

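Gyc32E and toy were the members described here, 2 genes of the 10563 that had a probe set of their own, measured by 4 probe sets of 16377. Gyc32E (gene ID 34553) lies on chromosome arm 2L and was measured by 1 probe set, 1629498_at. The gene toy (twin of eyeless, gene ID 43833) lies on chromosome 4, the smallest, and was measured by 3 probe sets, of which 1633512_at, the brightest on average, stood for the gene. Both were chosen from the measured values: their signal was near all-or-none between 2 of the muscle reporter arrays, apGFP replicate 3 and S59RFP replicate 2, and the other 4. That split is therefore given as a description, without a test.

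Gyc32E encodes a receptor-type guanylyl cyclase, a membrane protein that makes the second messenger cGMP from GTP. Cyclic GMP acts through protein kinases and ion channels and is removed by phosphodiesterases. The gene toy encodes a Pax6 transcription factor with a paired domain and a homeodomain. It is best known for acting upstream of its close relative eyeless (ey) in eye development, and for its expression in the head and brain of the embryo.

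The cells came from stage 13 Drosophila melanogaster embryos, collected for 2 h and then aged for 8 h at 25 °C, when myoblasts fuse into body wall muscles. Cells were sorted by fluorescence for 1 of 3 transgenes, with 3 independent sorts and thus 3 arrays for each. In apGFP, GFP was driven by a muscle enhancer of apterous, in S59RFP, RFP was driven by a muscle enhancer of slouch (S59), and in twi-actin-GFP, an actin-GFP fusion was driven by the twist promoter. No other allele or treatment is given in the labels. A sort through an enhancer holds whatever cells that enhancer marks, and on resorting 74% of apGFP cells, 87% of S59RFP cells and 95% of twi-actin-GFP cells were positive. Affymetrix Drosophila Genome 2.0 arrays measured total RNA, and the deposited values are log2 signals after RMA. In sorted bulk RNA, fewer cells that carry a transcript and less transcript per cell cannot be told apart.

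The arrays apGFP replicate 3 and S59RFP replicate 2 stood apart from the other muscle reporter arrays far beyond the 2 members. Over all 10563 genes, both lay below the other 4 for 2391 (22.6%) and above the other 4 for 2003 (19%). All 9 array medians lay between 4.47 and 4.61, with S59RFP replicate 2 the highest. That array also had the highest lower quartile (3.64, others 3.36 to 3.53) and the lowest upper quartile (7.45, others 7.64 to 7.92). Among marker lists, all 6 measured markers of fusion-competent myoblasts were lower on both arrays. The mean level of these markers was 10.78 to 11.19 there, 11.57 to 11.76 on the other 4 and 8.20 to 9.13 on twi-actin-GFP. Of 10 sarcomere markers, 6 were higher on both arrays and 2 lower, with mean levels of 10.32 to 10.44 against 9.72 to 9.99. Of 11 neuronal markers, 2 were lower and 4 higher on both arrays. Their mean level was 6.87 to 7.01 on both arrays, 6.86 to 6.91 on the other 4 and 6.75 to 6.79 on twi-actin-GFP. Of 10 markers of neuroblasts and sensory precursors, 4 were lower and 1 higher on both arrays, and ac and sens lay below the array median everywhere. The mean level of these 10 was 6.18 on both arrays, 6.27 to 6.55 on the other 4 and 5.97 to 6.43 on twi-actin-GFP. Of 4 tracheal markers 1, of 4 fat body markers 2 and of 6 endoderm and gut markers 3 were higher on both arrays. Mean levels there were 7.32 to 7.78 for trachea (6.63 to 7.02 on the other 4), 7.17 to 7.45 for fat body (6.96 to 7.06) and 6.01 to 6.45 for endoderm and gut (5.52 to 6.00), without overlap. All 3 were higher still on twi-actin-GFP, at 9.06 to 9.60, 9.47 to 9.62 and 8.14 to 8.84. Mean levels of glial, hemocyte and epidermal markers overlapped between the sets of muscle reporter arrays. The part of these differences in the values of Gyc32E and toy was not tested.

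For the cyclase gene Gyc32E the arrays fell into 3 sets without overlap. Its log2 signal was 13.68 and 13.57 on apGFP replicates 1 and 2, and 13.59 and 13.64 on S59RFP replicates 1 and 3. It was 4.77 on apGFP replicate 3 and 6.39 on S59RFP replicate 2. On twi-actin-GFP it was 8.39, 7.86 and 7.77. The 4 high arrays thus agreed within 0.10 although they came from sorts for different reporters. The lowest of them lay 7.19 above the higher of the low arrays, a 146-fold gap in signal. The twi-actin-GFP arrays lay between, 5.18 below the lowest of the 4 high arrays (36.3-fold) and 1.38 above the higher of the low arrays (2.61-fold). The low arrays themselves were 1.62 apart, more than this last distance, and so were not at 1 level. On apGFP replicate 3 the signal was close to that array's median of 4.51, and RMA gives no detection call, so that presence of the transcript there is not shown. The gap is taken from S59RFP replicate 2, where the signal lay above that array's median of 4.61. At the other end, the 4 high values lay above the 99th percentile of their arrays (12.48 to 12.49).

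The transcription factor gene toy split the same arrays. By its brightest probe set the signal was 9.11 and 8.77 on apGFP replicates 1 and 2, and 9.08 and 8.99 on S59RFP replicates 1 and 3. It was 4.52 on apGFP replicate 3 and 4.20 on S59RFP replicate 2. On twi-actin-GFP it was 6.49, 6.27 and 6.30. On both low arrays these values were at or near the array medians of 4.51 and 4.61, so that toy is not shown above background there and distances from these arrays are lower bounds. The 4 high arrays lay at least 4.26 above them (at least 19.1-fold). The twi-actin-GFP arrays again lay between without overlap, 2.29 below the 4 high arrays and at least 1.76 above the low arrays. For Gyc32E apGFP replicate 3 was 1.62 below S59RFP replicate 2, and for toy the low arrays have no order.

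**Figure D1:**
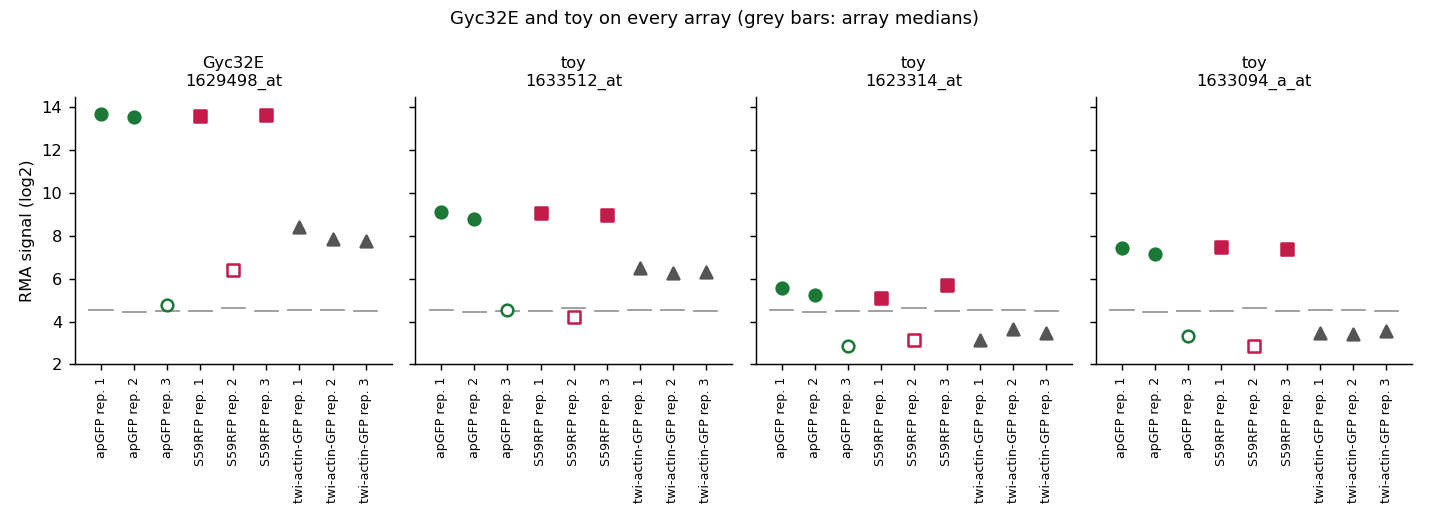
RMA signal (log2) of the Gyc32E probe set and the 3 toy probe sets on each of the 9 arrays, with filled circles for apGFP, filled squares for S59RFP, triangles for twi-actin-GFP and open symbols for apGFP replicate 3 and S59RFP replicate 2. Grey bars mark each array's median over all probe sets. The open symbols lie far below the other muscle reporter arrays in every panel, and the triangles lie well above the open symbols for Gyc32E and for toy probe set 1633512_at but not for the dimmer toy probe sets.

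The 3 probe sets of toy gave the same split, with gaps of 4.26, 3.81 (1633094_a_at) and 1.95 (1623314_at). They disagreed on the twi-actin-GFP arrays. By 1633094_a_at the 4 high arrays ran from 7.13 to 7.50, the low arrays were at 3.32 and 2.84, and twi-actin-GFP was at 3.48, 3.41 and 3.54, only 0.09 above the higher of the low arrays. By 1623314_at the 4 high arrays ran from 5.10 to 5.69, and twi-actin-GFP at 3.14 to 3.63 overlapped the low arrays at 2.84 and 3.15. Both dimmer probe sets lay below the array medians on the low arrays and on twi-actin-GFP. An intermediate level of toy on twi-actin-GFP was therefore measured by 1 of its 3 probe sets.

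Ranked by the size of this gap, Gyc32E was rank 1 among all genes and toy rank 3. Between them stood pie (pineapple eye), with 10.07 to 10.18 on the 4 high arrays, 5.25 and 5.48 on the low arrays and 7.83 to 7.96 on twi-actin-GFP. Just below toy came Hrb87F, an hnRNP gene, with a gap of 3.94. For Hrb87F the twi-actin-GFP arrays, at 10.85 to 10.96, were not intermediate but above all 6 muscle reporter arrays. In the opposite direction the largest gap was that of CG40160, at 3.35. The median over the genes with the 4 arrays higher was 0.19. With a gap of at least 2.0 there were 27 genes in the direction of Gyc32E and toy and 23 in the other. On twi-actin-GFP, 17 of the 27 were intermediate, Gyc32E and, by its brightest probe set, toy among them. A further 5 were above both sets of muscle reporter arrays, 2 were below both and 3 overlapped a set. Of the 23 genes in the other direction, 7 were intermediate, 1 was above both, 3 were below both and 12 overlapped a set. These places were not counted over all genes. By chromosome, 7 of the 27 genes were on 2L, 7 on 2R, 3 on 3L, 7 on 3R, 2 on X and 1, toy itself, on chromosome 4. Over all 10563 genes, 1943 were on 2L, 2122 on 2R, 2077 on 3L, 2620 on 3R, 1656 on X and 61 on chromosome 4.

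**Figure D2:**
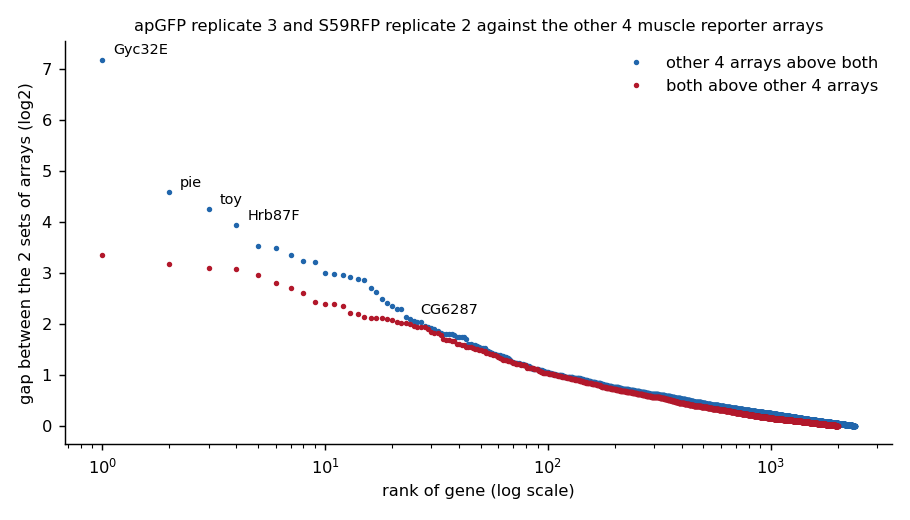
Gap in log2 signal (vertical axis) between apGFP replicate 3 with S59RFP replicate 2 and the other 4 muscle reporter arrays, for every gene whose arrays do not overlap, against the rank of the gene (horizontal axis, log scale). Blue points are genes with the other 4 arrays higher and red points genes with them lower. Gyc32E at 7.19 stands clear of pie at 4.59 and toy at 4.26.

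Each muscle reporter group held 1 low array among its 3, and neither gene passed the test between transgenes. For Gyc32E the mean was 10.67 ± 5.11 (SD, n = 3) on apGFP, 11.20 ± 4.17 (SD, n = 3) on S59RFP and 8.01 ± 0.34 (SD, n = 3) on twi-actin-GFP. The difference from twi-actin-GFP was 2.67 ± 2.61 (SE; limma, 95% interval -3.29 to 8.62, adjusted p = 0.496) for apGFP and 3.20 ± 2.61 (-2.76 to 9.15, adjusted p = 0.374) for S59RFP. For toy the means were 7.47 ± 2.56 on apGFP, 7.42 ± 2.79 on S59RFP and 6.36 ± 0.12 on twi-actin-GFP (SD, n = 3 each). Its differences were 1.11 ± 1.50 (limma, -2.31 to 4.53, adjusted p = 0.623) and 1.07 ± 1.50 (-2.35 to 4.48, adjusted p = 0.608). Of all probe sets, 21.9% were called for apGFP and 24.1% for S59RFP against twi-actin-GFP. These groups share their control arrays, and the wide spread within the muscle reporter groups is part of how the genes were chosen.

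Without apGFP replicate 3 and S59RFP replicate 2 the same differences passed the test. Gyc32E was then higher than on twi-actin-GFP by 5.62 on apGFP (limma, adjusted p = 3.6e-07) and by 5.60 on S59RFP (adjusted p = 3.36e-07). For toy the values were 2.59 (adjusted p = 2.17e-06) and 2.68 (adjusted p = 1.6e-06). The choice set the omitted arrays against the other muscle reporter arrays, which this fit keeps. Its p-values are thus not independent of the choice and are no support for a difference. This fit also called more probe sets over the whole array than the fit with all arrays.

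Between the reporters themselves neither gene passed the test. The choice of the genes, with 1 low array in each reporter group, fixed that outcome. The difference apGFP minus S59RFP was -0.53 for Gyc32E (limma, 95% interval -6.48 to 5.42, adjusted p = 0.995) and 0.04 for toy (-3.37 to 3.46, adjusted p = 0.998). In this contrast 0% of probe sets were called by limma, and 430 (2.63%) had an unadjusted p below 0.05. Without apGFP replicate 3 and S59RFP replicate 2 the differences were 0.01 for Gyc32E and -0.09 for toy.

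The genes next to Gyc32E on the chromosome were read in the same way, by taking the 3 nearest measured genes on each side. On 1 side, CG6287 and Ca-beta showed the same split. CG6287 stood at 7.64, 7.53, 7.39 and 7.45 on the 4 high arrays, at 5.29 on apGFP replicate 3, at 4.80 on S59RFP replicate 2 and at 6.05 to 6.30 on twi-actin-GFP. It thus repeated the 3 sets of arrays of Gyc32E with a smaller gap of 2.10. Ca-beta, which encodes a calcium channel subunit, stood at 6.69 to 7.59 on the 4 arrays and at 5.58 and 5.31 on the low arrays, a gap of 1.11. CG31867, taken as the nearest on that side, lies within the span of Gyc32E. Its signal was dim and level, at 3.67 to 3.99 on the 4 arrays and 3.90 and 3.95 on the low arrays. On the other side hgo, nearest to Gyc32E, did not separate the arrays (3.74 to 4.02 against 3.51 and 3.76). CG4751 was slightly higher on the low arrays (gap 0.25), and the replication factor gene RfC38 slightly lower (gap 0.15). Within 40 measured genes to each side of Gyc32E, 81 genes in all, gaps of at least 1.0 were found for CG6287, Ca-beta and zuc (1.45) besides Gyc32E itself. Over all genes 1.05% were lower by that gap on both low arrays and 1.02% higher.

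None of the nearest measured genes around toy came near its gap. The genes directly beside toy had no probe set of their own. Those measured were 2, 7 and 11 genes away on 1 side and 3, 4 and 5 on the other. The translation factor gene eIF4G1 was at 12.38 to 12.46 on the 4 arrays against 11.96 and 11.33 on the low arrays (gap 0.42). CG11076 was at 11.97 to 12.03 against 11.63 and 10.99 (gap 0.34). The gaps of Mpv17 and fuss were 0.09 and 0.06. The synaptic gene unc-13 was higher on the low arrays, at 8.75 and 8.58 against 8.11 to 8.27 (gap 0.31), and ATPsynbeta did not separate the arrays. The same window around toy was cut short by the chromosome end and held 56 of the 61 measured genes of chromosome 4. Besides toy itself, only bt, which encodes the titin-like protein projectin, had a gap of at least 1.0. The gap of bt ran the other way (1.46).

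**Figure D3:**
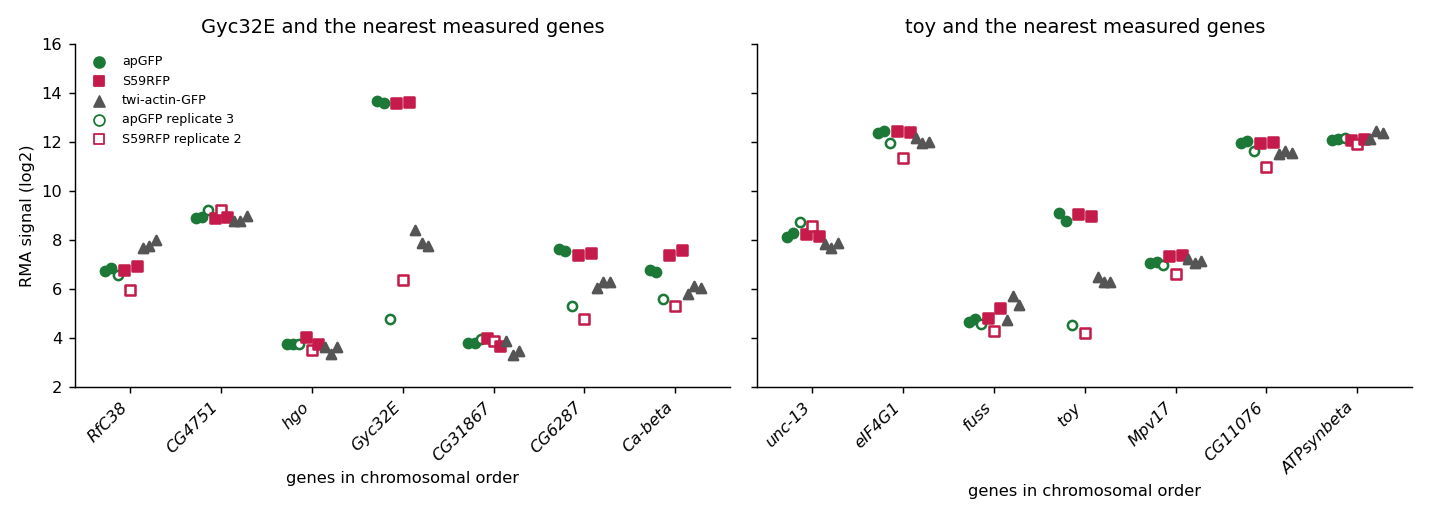
RMA signal (log2) of Gyc32E (left) and toy (right) with the 3 nearest measured genes on each side, in chromosomal order; each point is 1 array, with open symbols for apGFP replicate 3 and S59RFP replicate 2. CG6287 and Ca-beta follow the split of Gyc32E at gaps of 2.10 and 1.11, and the neighbours of toy have gaps of 0.42 or less. Levels of different genes are not comparable between probe sets.

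Gyc32E was the only measured guanylyl cyclase gene that was lower on both low arrays than on the other 4. It was chosen for that split, and 22.6% of all genes were lower on both, so this count says nothing about the family. Of 13 listed cyclase genes 8 had a probe set of their own, and Gyc76C, the best studied receptor cyclase of the fly, was covered only by probe sets shared with another gene. Against twi-actin-GFP, 0 of the 8 were called by limma on apGFP (1 had an unadjusted p below 0.05), and CG31183 alone rose on S59RFP (0.53 ± 0.13, limma, adjusted p = 0.022). That call was lost when S59RFP replicate 1 or 3 or twi-actin-GFP replicate 2 or 3 was left out (adjusted p up to 0.0891). It was kept without both apGFP replicate 3 and S59RFP replicate 2 (limma, adjusted p = 0.00696). The shares over all genes were 10.9% higher and 16.3% lower on apGFP, and 11.3% higher and 17.3% lower on S59RFP. Apart from Gyc32E the largest gap between the sets of muscle reporter arrays was 0.25, for the soluble cyclase gene Gyc89Da, in the opposite direction (4.36 and 4.20 on the low arrays, 3.68 to 3.95 on the other 4). Signals of Gyc88E ran only from 3.42 to 3.94 over the 9 arrays and those of Gyc89Db from 6.53 to 7.33. The median change of the 8 was 0.20 on apGFP and 0.27 on S59RFP, against 0.08 for all genes in both.

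Genes listed for cGMP effectors and turnover were called against twi-actin-GFP in several cases, without the wide split of Gyc32E. All 13 listed were measured. On apGFP 1 rose and 3 fell, and on S59RFP 4 rose and 3 fell. The shares over all genes were 10.9% higher and 16.3% lower on apGFP, and 11.3% and 17.3% on S59RFP. The gene for (foraging), which encodes a cGMP-dependent protein kinase, stood at 9.73, 9.66 and 9.68 on apGFP, at 9.47, 9.91 and 9.63 on S59RFP and at 10.45 to 10.63 on twi-actin-GFP. It fell by 0.86 and 0.88 (limma, adjusted p = 0.000972 and 0.000881). Pde6, a cGMP phosphodiesterase gene, fell by 1.82 and 1.80 (limma, adjusted p = 0.000503 and 0.000535). Pde8, another phosphodiesterase gene, fell by 1.19 and 1.34 (limma, adjusted p = 0.00396 and 0.00209). That Pde8 acts on cGMP is not shown here. Nos, the gene of nitric oxide synthase, whose product activates soluble guanylyl cyclases, rose by 1.34 and 0.80 (limma, adjusted p = 0.00076 and 0.0123). For Nos the 6 muscle reporter arrays ran from 5.09 to 6.18, with apGFP replicate 3 the highest and S59RFP replicate 2 the lowest, so that the arrays lowest in Gyc32E were at opposite ends for it. Smaller increases on S59RFP were called for Pde1c (0.55), CngA (0.54) and Pde11 (0.37). These calls were not stable: without twi-actin-GFP replicate 3 the adjusted p was 0.155, 0.115 and 0.107, and of the 9 omissions of 1 array they passed in 2, 3 and 5. Without both apGFP replicate 3 and S59RFP replicate 2 it was 0.0618, 0.026 and 0.0127 (limma). That fit called more probe sets altogether. The calls of for, Pde6, Pde8 and Nos passed in all 9. The largest gap in this list was 0.37, for Pde9, with 7.45 to 7.63 on the 4 arrays and 6.98 and 7.08 on the low arrays. The median change of the list was 0.10 on apGFP and 0.20 on S59RFP, against 0.08 for all genes in both.

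Adenylyl cyclase genes, which make the related messenger cAMP, held 1 increase and 1 decrease among 10 measured on apGFP and 2 increases on S59RFP. Over all genes the shares were 10.9% higher and 16.3% lower on apGFP, and 11.3% and 17.3% on S59RFP. The calcium-responsive cyclase gene rut rose by 1.42 ± 0.32 on apGFP (limma, adjusted p = 0.0121) and by 1.03 ± 0.32 on S59RFP (adjusted p = 0.0454). It was at 7.52 to 7.67 on 5 of the muscle reporter arrays and at 6.29 on S59RFP replicate 2, close to twi-actin-GFP at 5.95 to 6.24. Here apGFP replicate 3 sat with the high arrays. Ac78C fell by 0.69 on apGFP (adjusted p = 0.0405), and ACXE rose by 0.46 on S59RFP (adjusted p = 0.0326), both dim. Without twi-actin-GFP replicate 3 none of these calls held, with adjusted p of 0.0528 and 0.144 for rut, 0.143 for Ac78C and 0.111 for ACXE. Of the 9 omissions, rut passed in 8 on apGFP and in 1 on S59RFP, that of S59RFP replicate 2, Ac78C in 2 and ACXE in 6. All of these calls passed without both apGFP replicate 3 and S59RFP replicate 2 (limma, adjusted p up to 0.0235). The median change was 0.05 and 0.08, against 0.08 for all genes in both.

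Among the Pax genes toy alone split the muscle reporter arrays widely. Of 10 listed, 9 were measured. Its closest relative ey was low and level, at 5.12, 5.18 and 5.05 on apGFP, at 5.08, 5.45 and 4.94 on S59RFP and at 4.80, 4.94 and 4.995 on twi-actin-GFP, and did not pass (0.20 ± 0.13, limma, adjusted p = 0.315, and 0.24 ± 0.13, adjusted p = 0.205). The neighbouring segmentation genes gsb and gsb-n rose on both reporters. For gsb the increases were 2.13 ± 0.25 on apGFP and 2.13 ± 0.25 on S59RFP (limma, adjusted p = 0.000361 and 0.000362), and for gsb-n they were 2.26 ± 0.29 and 1.93 ± 0.29 (adjusted p = 0.000632 and 0.00155). Both were also slightly lower on the low arrays, with gaps of 0.16 and 0.18, but every muscle reporter array lay above every twi-actin-GFP array for both, which did not hold for toy. Poxm, a Pax gene of the somatic muscle lineage, rose by 1.07 ± 0.12 and 0.96 ± 0.12 (limma, adjusted p = 0.000244 and 0.000449) and showed no split. The sense organ gene sv fell by 0.85 and 0.54 (limma, adjusted p = 0.00656 and 0.0473), the latter in only 2 of the 9 omissions of 1 array (adjusted p = 0.155 without twi-actin-GFP replicate 2). Altogether 3 of the 9 rose and 1 fell in each comparison. Over all genes 10.9% rose and 16.3% fell on apGFP, and 11.3% rose and 17.3% fell on S59RFP. Without apGFP replicate 3 and S59RFP replicate 2, in a fit that called more probe sets altogether, 4 rose and 1 fell. The gene added was toy, which was chosen by the muscle reporter arrays that this fit keeps as well as by those left out. The median change was 0.33 on apGFP and 0.42 on S59RFP, against 0.08 for all genes in both.

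**Figure D4:**
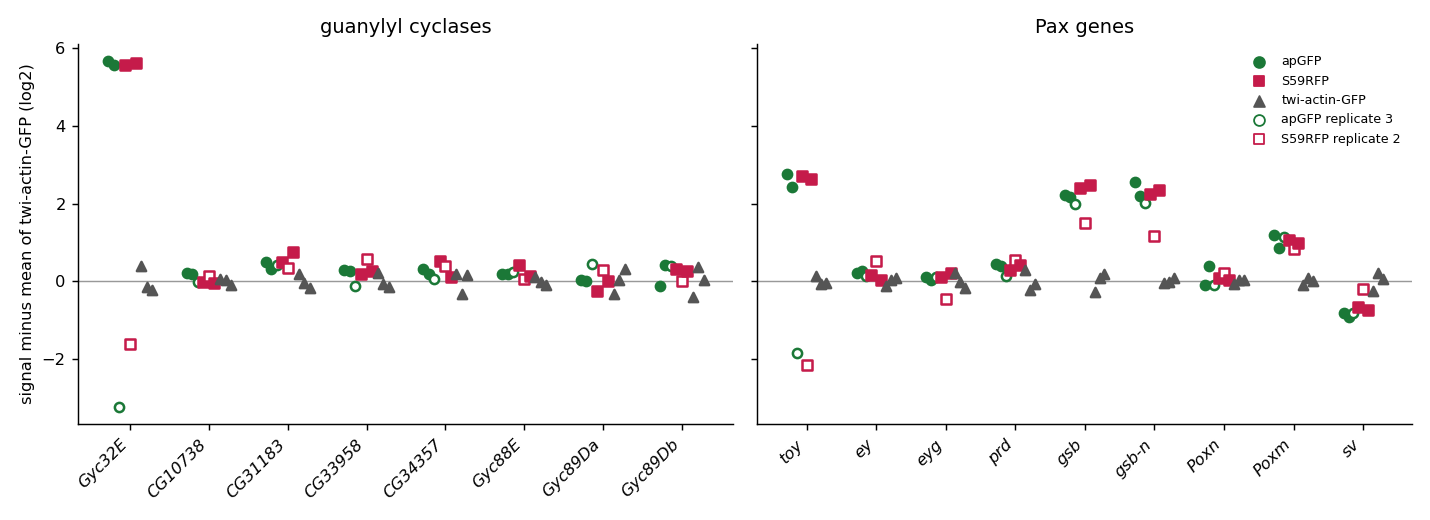
Signal of each measured guanylyl cyclase gene (left) and Pax gene (right) on each array, as the log2 difference from the mean of the 3 twi-actin-GFP arrays; open symbols are apGFP replicate 3 and S59RFP replicate 2. Gyc32E and toy alone have open symbols far below 0 and filled muscle reporter symbols far above it, and gsb and gsb-n are above 0 on all 6 muscle reporter arrays.

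Genes that work with Pax6 in the eye showed no gap like that of toy. Of 13 retinal determination genes 8 were measured, and 1 rose and 3 fell on apGFP, and 1 rose and 2 fell on S59RFP. The coactivator gene eya fell by 1.52 and 1.62 (limma, adjusted p = 0.00387 and 0.00279) and the nuclear factor gene dac fell by 1.37 and 1.44 (adjusted p = 0.00368 and 0.00294). The zinc finger gene tsh rose by 0.67 and 0.66 (limma, adjusted p = 0.00227 and 0.00245), and danr fell by 0.78 on apGFP (adjusted p = 0.0408), a call kept in 2 of the 9 omissions (adjusted p = 0.138 without apGFP replicate 1). The widest gap of this list was that of dac, at 0.42, with the low arrays higher (5.54 and 5.58 against 4.75 to 5.11). Of 10 measured head and brain patterning genes, 2 rose and 2 fell on apGFP, and 2 rose and 4 fell on S59RFP. Beside both lists, 10.9% of all genes rose and 16.3% fell on apGFP, and 11.3% and 17.3% on S59RFP. The zinc finger gene btd rose by 1.56 and 1.45 (limma, adjusted p = 0.000798 and 0.00117), while the bZIP gene cnc fell by 1.46 and 1.22 (adjusted p = 0.00142 and 0.00389) and the homeobox gene ems fell by 1.06 on both (adjusted p = 0.0183 and 0.0177). The homeobox gene ind rose by 0.46 and 0.41 (limma, adjusted p = 0.0341 and 0.0493), and on S59RFP oc (-0.65) and slp2 (-1.31) fell (adjusted p = 0.0193 and 0.0472). The calls of btd and cnc held in all 9 omissions. Without twi-actin-GFP replicate 3 the adjusted p was 0.0768 and 0.0746 for ems, 0.121 and 0.156 for ind and 0.151 for slp2, and without twi-actin-GFP replicate 2 it was 0.0542 for oc. These calls and that of danr passed without both apGFP replicate 3 and S59RFP replicate 2 (limma, adjusted p up to 0.0482). No gap in this list exceeded 0.29. The median change was -0.15 and -0.10 for the retinal list and 0.02 and 0.08 for the head list. For all genes it was 0.08 in both comparisons.

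The pattern of each gene over the 9 arrays was then set against 3687 other genes whose values spanned at least 1.0. Between Gyc32E and toy Pearson r was 0.978 over the 9 arrays and 0.986 over the 6 muscle reporter arrays. Over the 9 arrays toy was rank 5 in likeness to Gyc32E, and Gyc32E rank 9 in likeness to toy. Over the 6 muscle reporter arrays these ranks were 50 and 92, so that many genes were closer to each than they were to one another. Ahead of toy over the 9 arrays stood the sulfotransferase gene Tpst (0.987), CG42319 (0.984), CG11007 (0.981) and CG4678 (0.979), with CG31819 (0.978) next. The genes most like toy were Tpst (0.996), the selenoprotein gene BthD (0.993), pie (0.989), CG6287 (0.988), CG42319 (0.987) and the adducin gene hts (0.984). Tpst headed both orders although its own range was small, with 9.08 to 9.15 on the 4 high arrays, 8.10 and 8.11 on the low arrays and 8.47 to 8.55 on twi-actin-GFP. CG6287 is thus both a neighbour of Gyc32E and a close match of toy. BthD repeated the 3 sets of arrays, at 8.48 to 8.86, 5.67 and 5.99, and 7.24 to 7.38. These correlations describe arrays that fall into separate sets, so that r mostly reports the split.

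**Figure D5:**
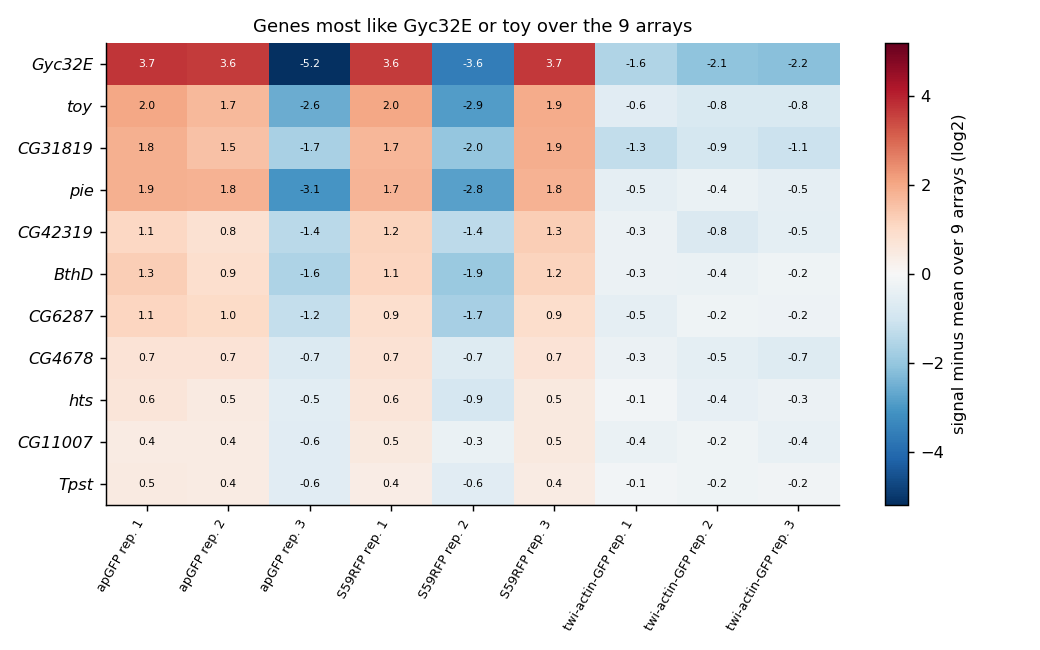
Log2 signal minus the gene's mean over the 9 arrays, by array (columns), for Gyc32E, toy and the genes most like either of them over the 9 arrays (rows, ordered by their highest value); red is above and blue below the gene's mean. apGFP replicate 3 and S59RFP replicate 2 are the bluest columns, with twi-actin-GFP between them and the other muscle reporter arrays in all rows but CG4678 and CG11007, where it overlaps them.

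Over the 6 muscle reporter arrays alone many more genes matched. An r above 0.9 was reached with 372 genes for Gyc32E and 552 for toy, against 87 and 138 over the 9 arrays, and an r below -0.9 with 414 and 483. The closest to Gyc32E on these arrays were the lysyl oxidase gene Loxl1 (0.999), qtc (0.997), CG42342 (0.997), CG14856 (0.997), CG8565 (0.996) and CG11007 (0.996). The closest to toy were Gbp2, a growth-blocking peptide gene (1.000), CG31819, ymp, BthD (0.999 each), CG14715 and CG1894 (0.998 each). Several of these parted from Gyc32E and toy on twi-actin-GFP. Gbp2 was at 9.49 to 9.65 there, above its 4 high arrays at 8.24 to 8.56, and ymp was at 3.66 to 4.12, at or below its low arrays at 4.13 and 4.18. The twi-actin-GFP arrays, which the choice of the genes did not use, thus separated genes that the muscle reporter arrays did not.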

How the data were processed

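The deposited values are log2 signals, 1 per probe set and array; per the submitters' processing notes the authors used RMA and Partek, with no version or setting named in the labels. Values ran from 2.28 to 14.64 and were analysed as deposited, with no filter. Arrays give no counting depth, and their number limits the precision. Sample titles gave the groups.

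Probe sets were named through the platform's annotation: 11899 had 1 gene, 353 several and 4125 none. The probe set with the highest mean stood for a gene. Gene order and chromosomes came from RefSeq's gene table (Release 6 assembly), and no coordinate is given. The 9 arrays entered 1 limma 3.58.1 model (R 4.3.3) of 3 group means with moderated variances. P-values were Benjamini-Hochberg adjusted over 16377 probe sets; below 0.05 was a call. The model was tested on simulated data. Values after ± are standard errors unless marked SD.

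Gyc32E, toy and the gene lists were chosen with earlier results of these data known. Named genes were, by a fixed rule, these members, ey, Gyc76C, up to 5 called genes per list and contrast, chromosomal neighbours and the 6 most correlated genes. Gap-ranked, window and other list genes were named after their values were seen.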

Additional observations from a re-analysis of the deposited data

How the results depend on the processing

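Differences of Gyc32E and toy from twi-actin-GFP kept their sign in every alternative run. With array weights Gyc32E passed on apGFP (4.28, limma, adjusted p = 0.0456) and S59RFP (5.56, adjusted p = 0.00246), and toy on S59RFP (2.66, adjusted p = 0.00461). These weights were estimated on the same arrays by which the genes were chosen. The weighted p-values are thus not independent of the choice. Without apGFP replicate 3 and S59RFP replicate 2 all 4 passed, at 5.62 and 5.60 for Gyc32E and 2.59 and 2.68 for toy. That fit keeps the other muscle reporter arrays, by which the genes were also chosen. With 1 array left out, Gyc32E ran from 1.16 to 5.62 on apGFP and 1.98 to 5.60 on S59RFP, and toy from 0.29 to 2.59 and 0.24 to 2.68. The difference apGFP minus S59RFP had no stable sign, running from -2.94 (without S59RFP replicate 2) to 2.42 (without apGFP replicate 3) for Gyc32E and -1.57 to 1.52 (the same arrays) for toy. For toy it was -0.77 with array weights and -0.11 by probe set 1623314_at, and without both arrays it was 0.01 for Gyc32E and -0.09 for toy.

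Probe sets called against twi-actin-GFP numbered 3593 on apGFP and 3946 on S59RFP. They were 6028 and 9228 with array weights, 5968 and 6155 without both arrays and 2318 and 2247 by the submitters' threshold (fold 1.7, unadjusted p below 0.05). After a further quantile normalization 2062 were higher and 1846 lower on apGFP, against 1601 and 1992 as reported, and on S59RFP 2265 and 1876 against 1826 and 2120. Calls ran from 2487 (without twi-actin-GFP replicate 3) to 5462 (without S59RFP replicate 2) and from 2453 to 4968 (the same arrays) with 1 array left out. Of apGFP minus S59RFP, 0 passed limma and 11 the submitters' threshold. Over the 6 pathway lists 18 genes were called on apGFP, 13 of them in all omissions of 1 array, and 23 on S59RFP, 12 of them in all. The S59RFP count was 15 with only its groups fitted, 38 with array weights, 14 by the submitters' threshold, 28 without both arrays and 12 to 22 with 1 array left out. Where a result changed, the cause was not tested.

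Replicate numbers showed no consistent pairing of the arrays. Correlations of same-numbered deviations were 0.491, -0.563 and -0.618 between the muscle reporters, and -0.0419 to 0.118 against twi-actin-GFP. The highest of any was 0.668, between apGFP replicate 3 and S59RFP replicate 2. As these divergent arrays carry different numbers, the check cannot decide on pairing between the muscle reporters. A replicate block left 3151 and 3320 probe sets called and gave Gyc32E and toy adjusted p of 0.408 to 0.645 against twi-actin-GFP.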
